A study of Mus musculus with 5 samples.

Results

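C3, C4b, A2m, Cxcl10, Cxcl14, Chil1 and Serping1, which encode complement and other inflammatory proteins, were followed here across the cells of the mouse growth plate. They were 7 of the 29818 genes counted, and all 7 were found in the count matrices. The genes were chosen by values from these same libraries: several of them led groups of resting chondrocytes, and C3 was lower in the libraries labelled mutant. Their levels across cell types, and the difference of C3 between labels, are therefore given as a description with no test. Single cells came from knee growth plate cartilage (femur and tibia) of 5 C57BL/6J littermate pups, labelled postnatal day 5, with 1 BD Rhapsody library per pup. The age in the design text of the series is an earlier postnatal day. Pups 1 and 2 were labelled WT, a label that does not state whether they carried Cre or the unrecombined allele. Pups 3, 4 and 5 were labelled mutant, that is, heterozygous for a conditional knock-in of Trpv4 p.R594H recombined by Col2a1-Cre, which is active in cells that have expressed type II collagen. The Col2a1 driver limits recombination of the allele to that lineage, so the mutation is not designed to be expressed in blood cells or macrophages. Trpv4 encodes a calcium channel, and a point mutation in it cannot be checked from a gene's count.

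Complement is a cascade of plasma and tissue proteins. C4 is cleaved when the classical or lectin pathway starts, C3 is the point at which all pathways meet, and the C1 inhibitor encoded by Serping1 blocks the proteases that start the classical pathway. A2m is a broad trap for proteases, Cxcl10 and Cxcl14 are chemokines, and Chil1 encodes a chitinase-like glycoprotein that cartilage releases (known in humans as YKL-40). Resting chondrocytes form the reserve zone of the growth plate, from which proliferating, prehypertrophic and hypertrophic chondrocytes arise in turn.

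The start regions of 3 of the genes are shown because the results below turn on high counts in few cells (Cxcl10, Chil1) or in part on cells outside cartilage (C3). RefSeq start regions (GRCm38.p6) were at hand for 4 of the 7 genes, and the 250 bases upstream of the start were searched on both strands for the inducible elements named ISRE (interferon-stimulated response element, GAAA, any 2 bases, GAAA), NF-kB, C/EBP (TTGCNNAA), AP-1 (TGANTCA) and GAS (TTCNNNGAA), and for TATAAA. Capitals mark the matches.
Cxcl10, chr5:92348890-92349139, minus strand: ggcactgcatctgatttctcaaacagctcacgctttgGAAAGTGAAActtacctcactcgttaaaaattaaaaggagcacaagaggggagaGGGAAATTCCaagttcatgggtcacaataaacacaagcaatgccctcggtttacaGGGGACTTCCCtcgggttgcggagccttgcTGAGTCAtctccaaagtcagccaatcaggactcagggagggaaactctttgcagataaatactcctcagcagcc
Chil1, chr1:134181906-134182155, plus strand: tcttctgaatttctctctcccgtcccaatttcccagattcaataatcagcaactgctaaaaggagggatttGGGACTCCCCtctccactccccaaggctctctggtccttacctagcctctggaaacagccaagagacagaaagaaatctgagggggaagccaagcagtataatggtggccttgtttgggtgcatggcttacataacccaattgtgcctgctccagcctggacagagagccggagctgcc
C3, chr17:57228137-57228386, minus strand: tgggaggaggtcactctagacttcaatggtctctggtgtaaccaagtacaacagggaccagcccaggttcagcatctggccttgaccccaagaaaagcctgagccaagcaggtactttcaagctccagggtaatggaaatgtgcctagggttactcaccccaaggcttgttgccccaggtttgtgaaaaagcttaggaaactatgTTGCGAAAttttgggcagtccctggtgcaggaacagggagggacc
The Cxcl10 region held an ISRE match 213 to 204 bases before the start, an NF-kB match at 159 to 150, another pair of NF-kB matches that overlap each other at 104 to 94, and an AP-1 match at 74 to 68. The Chil1 region held 1 NF-kB match at 179 to 170 bases, and the C3 region 1 C/EBP match at 45 to 38 bases. The Cxcl14 region held a GAS match at 191 to 183 and an ISRE match at 172 to 163 bases. Of 32851 start regions of the same length, 2.98% held the ISRE letters, 7.25% NF-kB, 9.56% C/EBP, 6.75% AP-1, 7.02% GAS and 12.4% TATAAA, which was in none of the 4 regions. A match is a string of letters and not a site shown to be bound.

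In all, 82516 cells were kept, 13814 to 19133 per pup, and the median cell held 6000 to 9261 UMIs per pup, fewer in each pup labelled mutant than in either labelled WT. Xist was found in 89.8% and 88.4% of the cells of pups 3 and 4 and in at most 0.174% of those of the others, and the Y-linked Ddx3y showed the reverse, so that genotype label and sex cannot be told apart except between pups 1, 2 and 5. WT and mutant pups below are those so labelled. Any pair of libraries shared 3 to 7 cell barcodes. Cells fell into 41 clusters, built without the 7 genes and the gene lists used here, except the dissociation stress and cell cycle lists, which could enter. Of the clusters, 27 were named from markers. The other 14, with 34.0% of the cells, are called by their leading genes. The samples are labelled chondrocytes, and Col2a1, the defining collagen of cartilage, was found in 99.0% of all cells, but also in 96.1% of the macrophages and 97.4% of the perichondrial cells. Col2a1 in erythroid cells reached 31401 CPM (UMIs of the gene scaled to the same library total in every group of cells, the usual count-per-total unit), 26.8% of the resting level. Levels below are set beside those in erythroid cells, which should not make these proteins. Col2a1 was lower in lymphoid cells (14676 CPM), macrophages (9353) and perichondrial cells (3493), so the erythroid level is not a common floor. Nor were erythroid counts spread thinly over cells. C4b was found in 11.7% of erythroid cells at 3.43 UMIs per such cell, and Cxcl10 in 11.4% at 7.95. The part of free RNA and of doublets (cells captured together) in erythroid counts was not tested. Of the 660 erythroid cells, 261 and 184 came from pups 1 and 2.

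C4b and A2m were higher in resting chondrocytes (16502 cells) than in every other named class with at least 50 cells in each pup, Chil1 was highest there on average, Cxcl14 was found there but was not highest, and Cxcl10 was at about the level of erythroid cells. No cluster was named proliferating, so no such class entered this comparison. C3 and Serping1 were close to absent from resting chondrocytes so named. The unnamed cluster led by Sfrp5 and H2ac6, which was left without a name because it leads with resting genes while scoring best for the proliferating list, held more C3 and is described below. The class held 4 clusters that differed widely. Of its 16502 cells, 5719 were in a cluster led by Chil1 and A2m, 4690 in one led by Spink5 and Prg4, 4520 in one led by Ucma and Serpina3n and 1573 in one led by Cytl1 and Ier2. The Spink5 and Prg4 cluster held the articular marker Prg4 at 11728 CPM, against 41215, 12857 and 9359 in the articular clusters, with the resting marker Wif1 also among its leading genes. An unnamed cluster of 1819 cells led by Mt2 and Chil1 was also rich in Chil1, A2m and C4b. The name resting was itself sensitive to the clustering: 3 of its 4 clusters scored best for another list, those led by Chil1 and A2m and by Ucma and Serpina3n for the proliferating list and that led by Spink5 and Prg4 for the Tgfbi-expressing list, and only the 1573 cells led by Cytl1 and Ier2 scored best as resting. At resolution 0.8 the class had 58.0 CPM of C4b, 12.6 of A2m and 24.0 of Chil1, the last 2 below the 40.2 of prehypertrophic and the 69.4 of Tgfbi-expressing chondrocytes at the main setting, and with another seed 98.9, 57.2 and 75.6. Matn1, a marker on the proliferating list, stood at 7541 CPM in the Chil1 and A2m cluster and 4586 in the Ucma and Serpina3n cluster. It stood at 538 CPM in the Cytl1 and Ier2 cluster and 308 in the Spink5 and Prg4 cluster. The order of classes above thus holds for the main clustering and its class names, and results are given by cluster as well as by class.

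**Figure D1:**
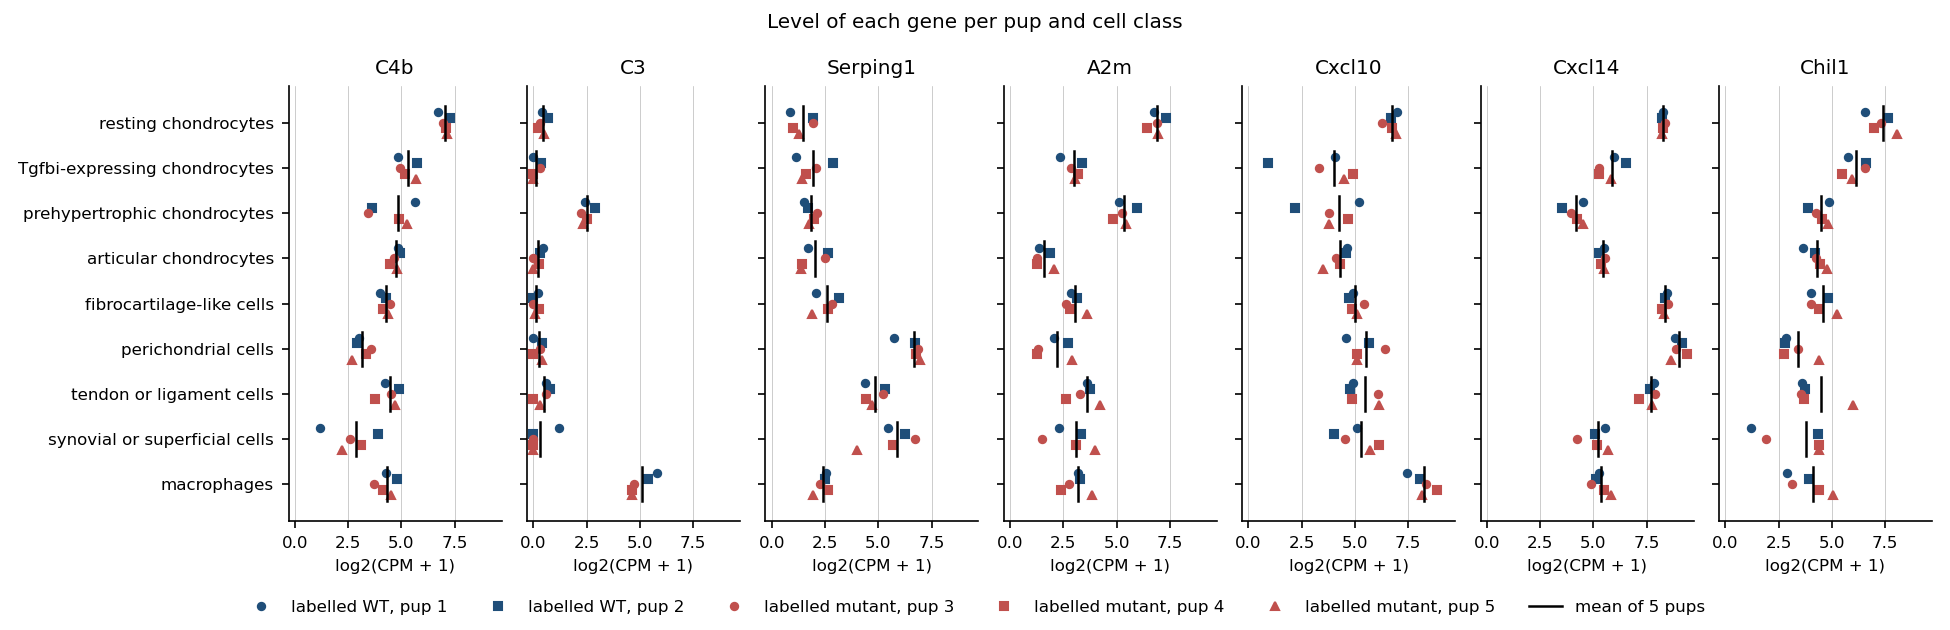
Level of each gene, as log2 of CPM plus 1, in the 9 named classes with at least 50 cells in every pup. Points are pups (blue, labelled WT; red, labelled mutant) and vertical lines the mean of the 5 pups; C4b and A2m stand highest in resting chondrocytes, C3 in macrophages, Serping1 and Cxcl14 in perichondrial cells.

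C4b, a gene for the complement component C4, reached 106, 156, 121, 135 and 138 CPM in the resting chondrocytes of pups 1 to 5. The mean was 131 ± 18.8 CPM (SD, n = 5 pups, as for all means below). Among classes with at least 50 cells in each pup no other came near these values. Tgfbi-expressing chondrocytes, next in their order, had 38.9 ± 11.3 CPM with a highest pup of 51.4. Prehypertrophic chondrocytes (27.2 ± 16.8), articular chondrocytes (25.8 ± 3.38), tendon or ligament cells (20.9 ± 6.13), macrophages (19.2 ± 5.48) and fibrocartilage-like cells (18.1 ± 2.28) followed, and their ranges overlapped. In the tendon or ligament class, 522 C4b UMIs came from a cluster of 537 cells with Col2a1 at 58602 CPM and 298 from the other 4842 cells. The gene was not confined to cartilage. An unnamed cluster of 3717 cells led by Col6a6 and Dpt, rich in Col1a1, had 237 ± 63.6 CPM and held 14.9% of all C4b UMIs with 4.50% of the cells. Within the resting class, C4b ran from 169 ± 27.1 CPM in the cluster led by Chil1 and A2m and 143 ± 19.1 in that led by Ucma and Serpina3n to 83.9 ± 37.3 in that led by Cytl1 and Ier2 and 65.2 ± 16.8 in that led by Spink5 and Prg4. Erythroid cells had 44.0 CPM, 34.0% of the pooled resting level. C4b (chromosome 17, 34728380 to 34743882, GRCm38) has a near-identical neighbour, C4a, at a distance of 65209 bases. C4a was given 300 UMIs against 43770 for C4b, and how reads shared by the 2 genes were assigned is not given in the sources used here.

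A2m, the protease trap, had 106, 160, 120, 85.1 and 122 CPM in resting chondrocytes, a mean of 119 ± 27.5. The lowest of these pups lay above the highest pup in prehypertrophic chondrocytes (61.4, with a mean of 40.2 ± 12.99 CPM). Tendon or ligament cells, macrophages, synovial or superficial cells, fibrocartilage-like cells and Tgfbi-expressing chondrocytes had means from 6.98 to 11.03 CPM, and articular chondrocytes, although they too make cartilage, had 2.03 ± 0.798 CPM. In the tendon or ligament class, 368 A2m UMIs came from the cluster of 537 cells with Col2a1 at 58602 CPM and 44 from the other 4842 cells. A2m divided the resting class most sharply. The cluster led by Chil1 and A2m had 238 ± 51.0 CPM and that led by Ucma and Serpina3n 79.2 ± 22.1, but those led by Cytl1 and Ier2 and by Spink5 and Prg4 had 20.4 ± 5.42 and 13.5 ± 4.02. The latter pair lay below the pooled level in erythroid cells, 35.7 CPM. Outside the class, the clusters led by Mt2 and Chil1 (218 ± 31.0 CPM) and by Sfrp5 and H2ac6 (143 ± 42.6) were also rich in A2m. The Sfrp5 cluster and the Chil1 and A2m cluster together with the prehypertrophic chondrocytes held 21.6%, 29.9% and 9.42% of all A2m UMIs.

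Chil1 had 93.6, 197, 160, 127 and 261 CPM in resting chondrocytes, with the lowest value in pup 1 and the highest in pup 5. The mean was 168 ± 64.9 CPM, and the next class with at least 50 cells in each pup, Tgfbi-expressing chondrocytes, had 69.4 ± 24.0 with a highest pup of 96.9, so that the 2 ranges overlapped. The other classes with at least 50 cells in each pup lay between 9.59 ± 6.15 CPM in perichondrial cells and 23.0 ± 9.26 in fibrocartilage-like cells. By cluster, Chil1 was highest in the cells led by Mt2 and Chil1, at 530, 609, 758, 647 and 1197 CPM, which held 23.1% of its UMIs in 2.20% of the cells. The cluster led by Chil1 and A2m followed with 341 ± 169 CPM and another 29.8% of the UMIs. Granulocyte lineage cells had 278 ± 62.7 CPM, with 62.3% of these cells holding a Chil1 UMI against 8.64% of erythroid cells, and so were a source outside cartilage. Of the other 6 members of the chitinase family, Chid1 had 14.9 ± 1.40 CPM in resting chondrocytes, Chit1 1.12 and Ovgp1 0.681, and Chil3, a granulocyte gene, reached 386 CPM in granulocyte lineage cells against 0.0338 in resting chondrocytes.

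Cxcl14, a chemokine of epithelial and mesenchymal tissues, was spread over many classes. Its resting level was the steadiest of the set, at 308, 298, 329, 306 and 301 CPM (mean 308 ± 12.003). Perichondrial cells were higher, with 512 ± 108 CPM and a lowest pup of 395, and fibrocartilage-like cells had 327 ± 23.5, a range that overlapped the resting one. Tendon or ligament cells had 204 ± 38.7 CPM. The gene was low in articular chondrocytes (42.1 ± 3.52) and prehypertrophic chondrocytes (17.4 ± 4.86), below the 105 CPM of erythroid cells. Within the resting class it was more even than A2m or Chil1, from 389 ± 52.3 CPM in the cluster led by Chil1 and A2m to 230.5 ± 36.8 in that led by Cytl1 and Ier2.

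Cxcl10, the interferon-inducible chemokine that attracts activated lymphocytes, had 123, 102, 76.6, 105 and 122 CPM in resting chondrocytes (106 ± 18.9). Macrophages had more, with 300 ± 107 CPM, and no pup of theirs was as low as the highest resting value. Perichondrial cells (44.3 ± 24.3), tendon or ligament cells (43.9 ± 22.2), synovial or superficial cells (38.03 ± 21.8) and fibrocartilage-like cells (31.2 ± 6.49) overlapped one another. Articular chondrocytes had 18.5 ± 5.46 CPM. Erythroid cells stood at 99.4 CPM, 92.8% of the pooled resting level, while lymphoid cells stood at 20.6. Among clusters, the Chil1 and A2m cluster had 178 ± 66.6 CPM, the cluster led by Ucma and Serpina3n 93.7 ± 17.9, and the other resting clusters 43.1 ± 12.5 and 29.7 ± 25.9. Schwann cells (106 cells in all, at least 5 in a pup) had 652 CPM when their cells were pooled.

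The UMIs of Cxcl10 sat in few cells. Of the resting chondrocytes 9.13% held any, at 9.35 UMIs per such cell, with a range over pups of 7.43 to 12.02 and a highest cell of 125. The 165 cells with the most, 1% of the class, held 47.0% of the UMIs. C4b, by contrast, was found in 40.0% of the cells at 2.58 UMIs each, with 11.2% of its UMIs in the top 1%, and Cxcl14 in 59.8% of the cells at 4.11 UMIs each with 9.80%. A2m (29.7% of the cells, 3.16 UMIs each, 17.4% in the top 1%) and Chil1 (32.7%, 3.96 and 23.0%) lay between. Chil1 reached 87 UMIs in a cell, and 550 resting chondrocytes held at least 10 UMIs of it, against 449 for Cxcl10 and 130 for C4b.

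Because cells differed in depth, shares were repeated with every cell thinned to 3000 UMIs, which left 16152 of the resting chondrocytes. The share with a UMI was then 24.8 ± 3.41% for C4b, 18.6 ± 3.68% for A2m, 20.5 ± 5.24% for Chil1 and 42.2 ± 1.51% for Cxcl14, against 8.12 ± 2.61%, 4.30 ± 2.05%, 4.62 ± 1.64% and 17.6 ± 5.45% in erythroid cells. For Cxcl10 the resting share of 6.74 ± 0.928% was below the erythroid share of 8.09 ± 1.60%. The share of the whole class was therefore not above that of erythroid cells, while articular chondrocytes and lymphoid cells had lower shares. The cluster led by Chil1 and A2m had 10.8 ± 2.68%, articular chondrocytes 2.09 ± 0.581%, macrophages 15.1 ± 5.75%, and lymphoid cells 2.54% when pooled. Neither C3 (0.0961 ± 0.0657% resting, 0.217 ± 0.486% erythroid) nor Serping1 (0.417 ± 0.249% and 2.87 ± 2.76%) exceeded the erythroid share in resting chondrocytes.

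**Figure D2:**
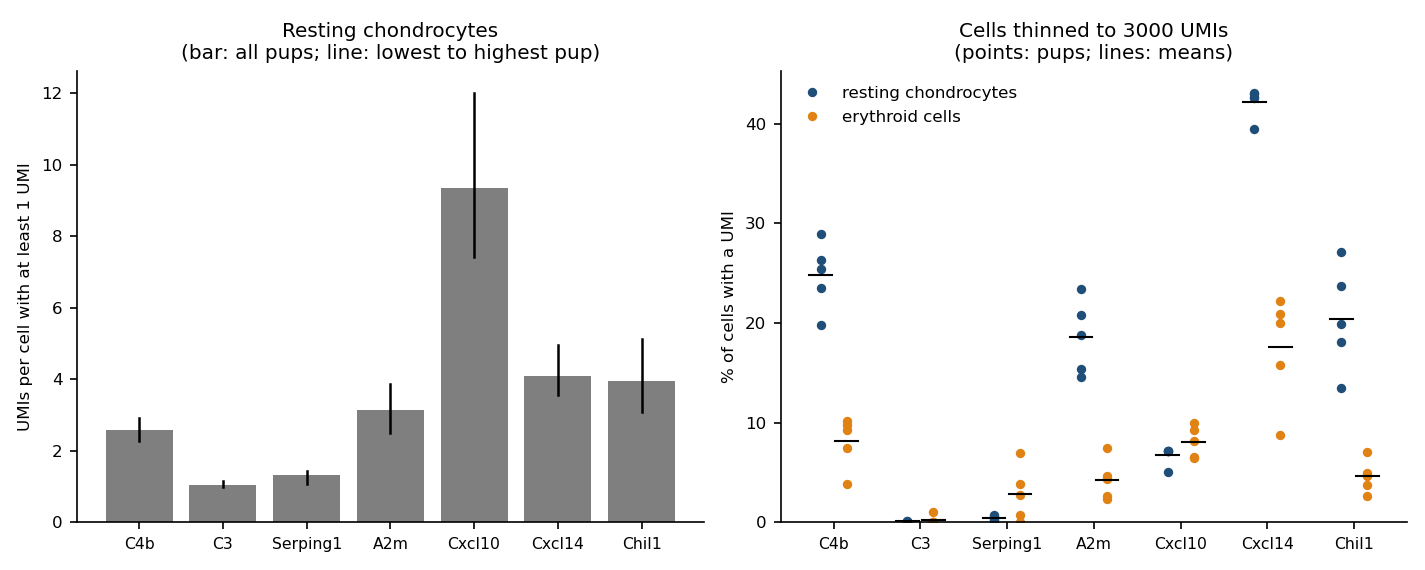
Left, UMIs per resting chondrocyte with at least 1 UMI of the gene (bars, all pups; lines, lowest to highest pup); Cxcl10 stands at 9.35. Right, share of cells with a UMI after thinning to 3000 UMIs, per pup, in resting chondrocytes (blue) and erythroid cells (orange), with means as lines; the classes are apart for C4b, A2m, Cxcl14 and Chil1 and not for C3, Serping1 and Cxcl10.

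Serping1, the C1 inhibitor, was a gene of connective tissue and vessel walls in these libraries. Perichondrial cells had 51.7, 106, 115, 109 and 122 CPM (101 ± 28.1), synovial or superficial cells 57.4 ± 33.7 and tendon or ligament cells 27.9 ± 8.84, with overlapping ranges. By cluster it was highest in the cells led by Abca8a and Aldh1a2, of which 86.6% held a UMI (408 ± 72.0 CPM), and in pericytes or smooth muscle cells (284 ± 122). Cells led by Col6a6 and Dpt held 23.7% of its UMIs. Resting chondrocytes had 1.77 ± 0.995 CPM, 222 UMIs in all.

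C3, on which all pathways of complement meet, had its highest levels in myeloid cells. At a lower level it was found in prehypertrophic and hypertrophic chondrocytes. It was also found in the unnamed clusters led by Sfrp5 and H2ac6, by Col6a6 and Dpt and by Ccnb1 and Pbk. Granulocyte lineage cells had 105 ± 43.9 CPM, with a UMI in 49.3% of cells, and macrophages 33.8 ± 13.8 CPM, with a UMI in 19.7%. Prehypertrophic chondrocytes had 4.65 ± 1.10 CPM and hypertrophic chondrocytes 5.04 ± 1.76, and the cluster led by Sfrp5 and H2ac6, which shares high Acan and Matn1 with chondrocytes, had 6.69 ± 1.03. In these a UMI was found in 8.20%, 9.09% and 8.27% of cells, against 0.909% in erythroid cells, but their cells were also deeper (medians of 21734 UMIs in prehypertrophic chondrocytes and 7238 in erythroid cells). Resting chondrocytes, with 46 UMIs in 16502 cells, were at 0.352 ± 0.170 CPM, beside 0.881 ± 1.74 CPM in erythroid cells. Of all 2102 C3 UMIs, granulocyte lineage cells held 20.9% with 0.437% of the cells, prehypertrophic chondrocytes 20.4%, the Sfrp5 cluster 17.3% and the main macrophage cluster 17.2%. The Col1a1-rich cluster led by Col6a6 and Dpt held 9.04%, or 190 UMIs, with a UMI in 2.72% of its cells. The cluster led by Ccnb1 and Pbk, with Col2a1 at 59763 CPM, held 4.38%, with a UMI in 6.27% of its cells.

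**Figure D3:**
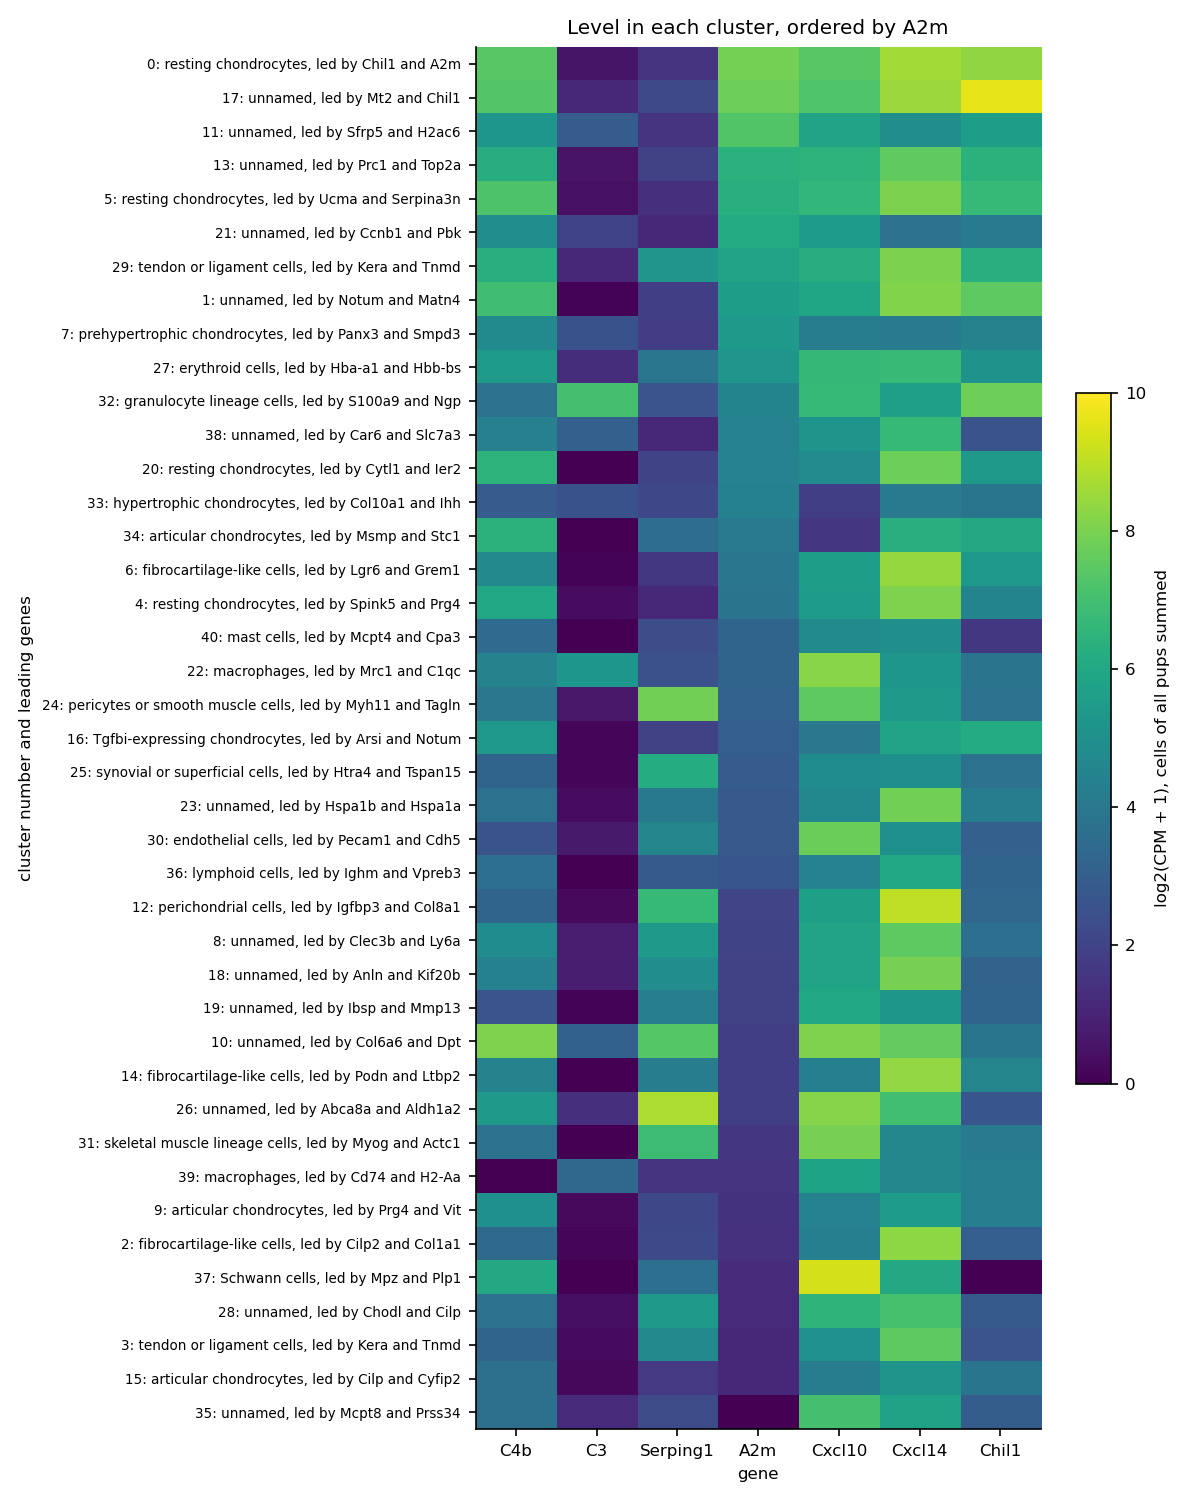
Level of each gene in each of the 41 clusters, as log2 of CPM plus 1 over the cells of all pups, ordered from high to low A2m. A2m and Chil1 share their upper rows, with the clusters led by Chil1 and A2m and by Mt2 and Chil1 on top, while Serping1 is bright in lower rows and C3 mainly in granulocyte lineage cells and macrophages.

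Across the 41 clusters, which share libraries and free RNA, A2m and Chil1 ran most closely together of the 21 pairs of members (Pearson's r of log2 levels 0.77), followed by C4b with Chil1 (0.60) and C4b with A2m (0.58). A2m and Serping1 ran opposite (-0.42), and the r of C3 with the other members lay between -0.29 and 0.20. The 3 genes with the most similar pattern were, for A2m, the cartilage matrix genes Matn1 (0.91) and Epyc (0.90) and the noncoding gene Pantr1 (0.87), which was also among the 3 for Chil1 (0.77) beside Gm8113 (0.84) and Adhfe1 (0.78). Matn1 is also on the marker list for proliferating chondrocytes. C4b was nearest to Sfrp1 (0.80), a secreted Wnt antagonist, then Has2os (0.77) and Aldh6a1 (0.75). Cxcl14 was nearest to Penk (0.86), the proenkephalin gene, then Gpr27 (0.82) and 4933400C23Rik (0.81). Serping1 was nearest to Rarres2 (0.91), which encodes chemerin, then Vstm4 (0.90) and Dmpk (0.87), and C3 to Sh2b2 (0.93), Hk3 and B430306N03Rik (both 0.91). Cxcl10 had no close match, with Adam19 and Slfn9 (both 0.65) and Pdgfd (0.64) first.

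Within resting chondrocytes thinned to equal depth, A2m, Chil1 and C4b were found in the same cells more often than in cells without the other gene. Of cells with an A2m UMI 34.6% also held Chil1, against 16.9% of those without, and 36.2% against 22.1% held C4b. For Chil1 with C4b the shares were 26.7% and 18.1%, and for Cxcl10 with A2m 11.3% and 5.73%. Each of these held in 5 of 5 pups. The same held in 5 of 5 pups for Cxcl14 with A2m (52.4% and 39.8%) and with C4b (47.5% and 40.4%), and for Cxcl10 with Chil1 (8.93% and 6.20%). Some pairs did not share the pattern: 7.53% of cells with C4b and 6.49% of those without held Cxcl10 (higher in 3 of 5 pups), 42.5% of cells with Cxcl10 and 42.1% of those without held Cxcl14 (3 of 5), and Serping1 was in 0.326% of cells with C4b and 0.436% of those without (higher in 1 of 5). These shares were taken over the whole class, and the part of its 4 clusters in them was not tested.

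The genes that switch on with inflammation were compared in cells with and without Cxcl10, Chil1, A2m, C4b and Cxcl14. Cxcl10 and Chil1 carry NF-kB letters in the regions shown above, and the Cxcl14 region held no NF-kB match. The 29 NF-kB and acute phase genes summed to 2345 ± 425 CPM in resting chondrocytes with a Cxcl10 UMI and 1800 ± 190 in those without, higher in 5 of 5 pups by 1.18 to 1.46 times. For Chil1 the sums were 2254 ± 322 and 1608 ± 92.7 CPM and for A2m 2186 ± 380 and 1678 ± 106, again higher in 5 of 5 pups, and for C4b 1952 ± 279 and 1778 ± 157 (4 of 5). For Cxcl14 they were 1920 ± 253 and 1736 ± 131 (5 of 5). In macrophages the sum was again higher with Cxcl10, at 7106 ± 1056 against 5484 ± 984 CPM (5 of 5 pups, 232 cells with it). For A2m and Chil1 the order was the other way, with 3848 ± 1235 CPM with A2m and 5972 ± 1070 without (higher in 0 of 5 pups) and 4648 ± 686 with Chil1 and 5942 ± 1134 without (1 of 5). The sum was higher with C4b and with Cxcl14 in 0 of 5 pups each. The A2m values rested on 35 macrophages, only 1 of them in pup 4, and the Chil1 values on 55. In macrophages A2m stood at 7.89 CPM and Chil1 at 13.6, between the lymphoid (5.35 and 8.41) and erythroid (35.7 and 34.2) levels, and the part of free RNA was not tested. The 25 interferon response genes other than Cxcl10 summed to 361 ± 43.4 CPM with Cxcl10 and 302 ± 19.6 without (5 of 5 pups, 1.08 to 1.31 times), and stood at 306 ± 33.7 and 308 ± 18.6 with and without A2m. The 19 dissociation stress genes, which the enzymatic release of cells can induce, were also higher with Cxcl10, at 20220 ± 4575 against 17440 ± 3591 CPM, with Chil1, at 19180 ± 4416 against 16870 ± 3242, with A2m, at 19050 ± 3736 against 17000 ± 3723, and with C4b, at 19120 ± 4229 against 16670 ± 3347 (5 of 5 pups each). With Cxcl14 the stress genes stood at 17680 ± 3637 against 17870 ± 3974 CPM (higher in 3 of 5 pups). In macrophages the stress genes were higher with Cxcl10 too, at 25910 ± 2914 against 17890 ± 3275 CPM (1.26 to 2.08 times). The 12 cell cycle genes were at 2620 ± 571 against 1348 ± 129 CPM there (1.60 to 2.29 times, both lists in 5 of 5 pups). In macrophages with A2m or Chil1 they were lower, at 678 against 1656 CPM for A2m and 858 against 1654 for Chil1 (higher in 0 of 5 pups each). Interferon response genes were at 1946 against 2936 CPM for A2m (1 of 5) and 2389 against 2897 for Chil1 (0 of 5). Stress genes were higher in 3 of 5 pups with A2m and 2 of 5 with Chil1. In resting chondrocytes the interferon response genes were higher with Chil1, at 322 ± 26.5 against 299 ± 18.9 CPM (5 of 5 pups). Resting chondrocytes with each gene were deeper than those without (medians of 8684 against 7239 UMIs for Cxcl10, 8301 against 6892 for Chil1, 8636 against 6825 for A2m, 8081 against 6879 for C4b and 8174 against 6118 for Cxcl14). In macrophages the medians were 9093 against 7142 UMIs for Cxcl10, 10930 against 7457 for Chil1 and 15060 against 7447 for A2m. They were 11130 against 7306 UMIs for C4b and 12650 against 7246 for Cxcl14. The part of depth, doublets, stress, cell cycle and cluster in these differences was not tested. Among the 41 clusters, the one led by Chil1 and A2m ranked 37th for interferon genes (294 CPM pooled), 20th for NF-kB and acute phase genes (2129) and 32nd for stress genes (11624). The one led by Mt2 and Chil1 ranked 30th, 10th and 11th. Mt2 is itself on the stress list and stood at 10223 CPM there. Stress and cell cycle genes could enter the clustering, so these stress ranks are not independent of it.

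The rest of the complement pathway in resting chondrocytes was mostly low. Among 20 initiation genes those named beside C4b by level were Colec12 (228 ± 26.4 CPM, above C4b), a scavenger receptor of the collectin family, C1s1 (20.5 ± 6.39) and C1ra (16.7 ± 6.85), the proteases of C1, and C1rl (9.26 ± 1.44). Of the 11 genes of the C3, alternative and terminal group none had a mean above 1 CPM. C8g had 0.982, Cfp 0.851, Hc 0.585, C3 0.352 and C9 0.249 CPM. Regulators were better represented, with Cr1l (96.1 ± 1.76 CPM) and Clu (76.7 ± 15.0), which restrain C3 and the terminal complex, beside Cd59a (7.14), Cd59b (6.61) and Cd46 (3.04). Receptors for complement fragments were nearly absent, with C5ar2 at 2.36 CPM, Cd93 at 0.923, Itgb2 at 0.636, C5ar1 at 0.258 and Itgam at 0.154. The other initiation genes summed to 292 CPM in the cluster led by Chil1 and A2m, which ranked 25th of 41, against 2721 in the main macrophage cluster. The protease inhibitors and their receptor stood higher: Serpina3n (200 ± 52.9 CPM), Lrp1 (185 ± 8.40), the receptor that clears A2m, and Serpine2 (180 ± 16.8). Among 31 chemokines, Cxcl1 had 140 ± 45.4 CPM, above the mean of Cxcl10, Cxcl2 had 15.8 ± 6.77 and Cxcl12 15.5 ± 2.46, and of the receptors only Ackr3 (125 ± 38.4) was above 4 CPM.

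Levels were then compared between the labels, on UMIs summed per pup and class, with edgeR's quasi-likelihood test and Benjamini-Hochberg adjustment over all genes. No gene passed an adjusted p of 0.05 in any class: 0 of 21024 genes in all cells, 0 of 15253 in resting, 0 of 12477 in articular, 0 of 15399 in prehypertrophic and Tgfbi-expressing chondrocytes, 0 of 11543 in perichondrial and 0 of 12379 in tendon or ligament cells (0% called in each). At an unadjusted p under 0.05 there were 1169, 652, 1050, 506, 978 and 458 genes. DESeq2 called 48, 11, 12, 0, 17 and 2 of the 17061, 17564, 1124, 25938, 1913 and 22788 genes to which it gave an adjusted p. None of the 6 members tested was among them, but a gene without an adjusted p could not be called. In articular and perichondrial cells most of the 22483 and 21550 genes were without one. All 7 members passed the filter on low counts in all cells and in resting chondrocytes, and C3 did not pass in articular chondrocytes. Hypertrophic chondrocytes, with 29 cells in 1 pup, were not tested. The pups are separate animals of 1 litter, with 2 against 3 of them.

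In resting chondrocytes none of the 6 members tested differed beyond the spread between pups. Log2 fold changes, mutant over WT, were 0.42 (SE 0.40) for Chil1, 0.11 (0.10) for Cxcl14, 0.09 (0.15) for C4b, 0.03 (0.57) for Serping1, -0.09 (0.22) for Cxcl10 and -0.21 (0.18) for A2m, with edgeR adjusted p from 0.97 to 0.99. The label groups overlapped for each, as the values above show: the pups labelled WT stood at 93.6 and 197 CPM for Chil1 and those labelled mutant at 160, 127 and 261. Over all genes tested in this class, 15.1% had every mutant library below every WT library and 4.60% every one above, and no member was among them. The Chil1 effect was 0.018 without WT replicate 1, 0.064 without mutant replicate 3 and 0.98 without WT replicate 2. In the cluster led by Chil1 and A2m alone no gene was called either. Chil1 in all cells was high in 1 pup, at 57.2 and 62.9 CPM in pups 1 and 2 and 56.0, 62.2 and 145 in pups 3 to 5, and its log2 fold change of 0.65 became 0.09 without mutant replicate 3, which is pup 5.

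In articular chondrocytes, which line the joint, the WT pups had 24.0 and 22.9 CPM of Cxcl10 and the mutant pups 16.2, 18.9 and 10.5. C4b was at 27.7 and 29.8 against 23.8, 21.2 and 26.5 CPM. Chil1 went the other way, at 11.6 and 17.6 against 18.1, 20.7 and 26.0 CPM. All 3 were below the pooled level in erythroid cells there, at 18.9 against 99.4 CPM for Cxcl10, 26.1 against 44.0 for C4b and 18.2 against 34.2 for Chil1, and the part of free RNA in these values was not tested. The label groups did not overlap for these 3, but 15.2% of all genes tested there lay wholly below and 8.40% wholly above. The fold changes were -0.60 (SE 0.20) for Cxcl10, -0.23 (0.14) for C4b and 0.60 (0.21) for Chil1, with edgeR adjusted p of 0.51, 0.66 and 0.51, so none passed. Of the 19 dissociation stress genes 15 had a negative fold change there, as Cxcl10 did, with a median of -0.18 beside -0.0072 over all genes, and 6 had an unadjusted p under 0.05 with 0 called. Of the 12 cell cycle genes 9 were negative (median -0.19, 3 with an unadjusted p under 0.05, 0 called). Their part in the Cxcl10 values was not tested. With only pups 1, 2 and 5, which share the Xist pattern, Cxcl10 in articular chondrocytes was lower by the test (log2 fold change -1.09, edgeR adjusted p 0.021, with 83 of 12885 genes or 0.644% called), resting on 1 library labelled mutant that is assumed to vary like the others. Over the other edgeR alternatives its adjusted p ran from 0.068 to 0.96. The difference between the label effects in resting and articular chondrocytes passed for 0 of 14820 genes (0%, with 637 at an unadjusted p under 0.05), and its edgeR adjusted p was 1.0 for every member tested.

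In perichondrial cells Serping1 was above both WT pups (51.7 and 106 CPM) in each mutant pup (115, 109 and 122), as were 9.44% of all genes tested, with a log2 fold change of 0.57 (SE 0.28, edgeR adjusted p 0.62). Without the filter on low counts the adjusted p became 0.021 at a fold change of 0.58, where 126 of 21550 genes (0.585%) were called. Of 11 cell cycle genes tested in perichondrial cells 10 were negative (median -0.28), and of 19 stress genes 14 were (-0.14). Of 12 interferon response genes 10 were positive (0.48), beside a median of -0.0036 over all genes. None of these was called in the main fit, and their part in the Serping1 values was not tested. Erythroid cells, with 34.2 CPM of Chil1, also held more Col2a1 than perichondrial cells (31401 against 3493 CPM). Chil1 in perichondrial cells was lower, at 8.75 CPM pooled, and pup 5 was high in Chil1 over all cells too. It had a fold change of 0.87 (SE 0.48, edgeR adjusted p 0.64), and in pups 1, 2 and 5 alone it was 1.70 with an adjusted p of 0.0010, where 246 of 11401 genes (2.16%) were called. Leaving out 1 pup moved the Serping1 effect between 0.16 (without WT replicate 1) and 1.21 (without WT replicate 2, edgeR adjusted p 0.0501) and the Chil1 effect between 0.42 (without mutant replicate 3) and 1.197 (without mutant replicate 2). In tendon or ligament cells Chil1 was high in pup 5 only, at 62.0 CPM against 10.7 to 12.6 in the other 4. Of the 686 Chil1 UMIs in this class, 500 came from a cluster of 537 cells that also held Col2a1 at 58602 and Ucma at 3102 CPM, against 2917 and 86.8 in the other cluster, of 4842 cells, and pup 5 was highest in both (274 against 50.2 to 58.3 CPM, and 22.1 against 2.09 to 4.27). The part of cartilage RNA in the Chil1 values was not tested. In the whole class Cxcl10 was at 28.7 and 26.5 CPM in WT against 67.2, 28.0 and 69.2 in mutant pups. The fold changes were 1.23 (SE 1.02) and 1.06 (0.38), both with an edgeR adjusted p of 0.97. In pups 1, 2 and 5 alone both passed (2.47 with 0.0025 for Chil1, 1.41 with 0.018 for Cxcl10), where 13 of 12744 genes (0.102%) were called, and Cxcl10 also passed without mutant replicate 2, which is pup 4 (1.37 with 0.015), as the 1 gene called of 12281. Of the 19 stress genes 14 had a positive fold change in these cells, as Cxcl10 did (median 0.16 beside -0.00074 over all genes, 4 with an unadjusted p under 0.05, 0 called), and their part in it was not tested. The Chil1 effect became 0.09 without pup 5. Each call in pups 1, 2 and 5 rests on 1 library labelled mutant, with pups 3 and 4 left out.

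**Figure D4:**
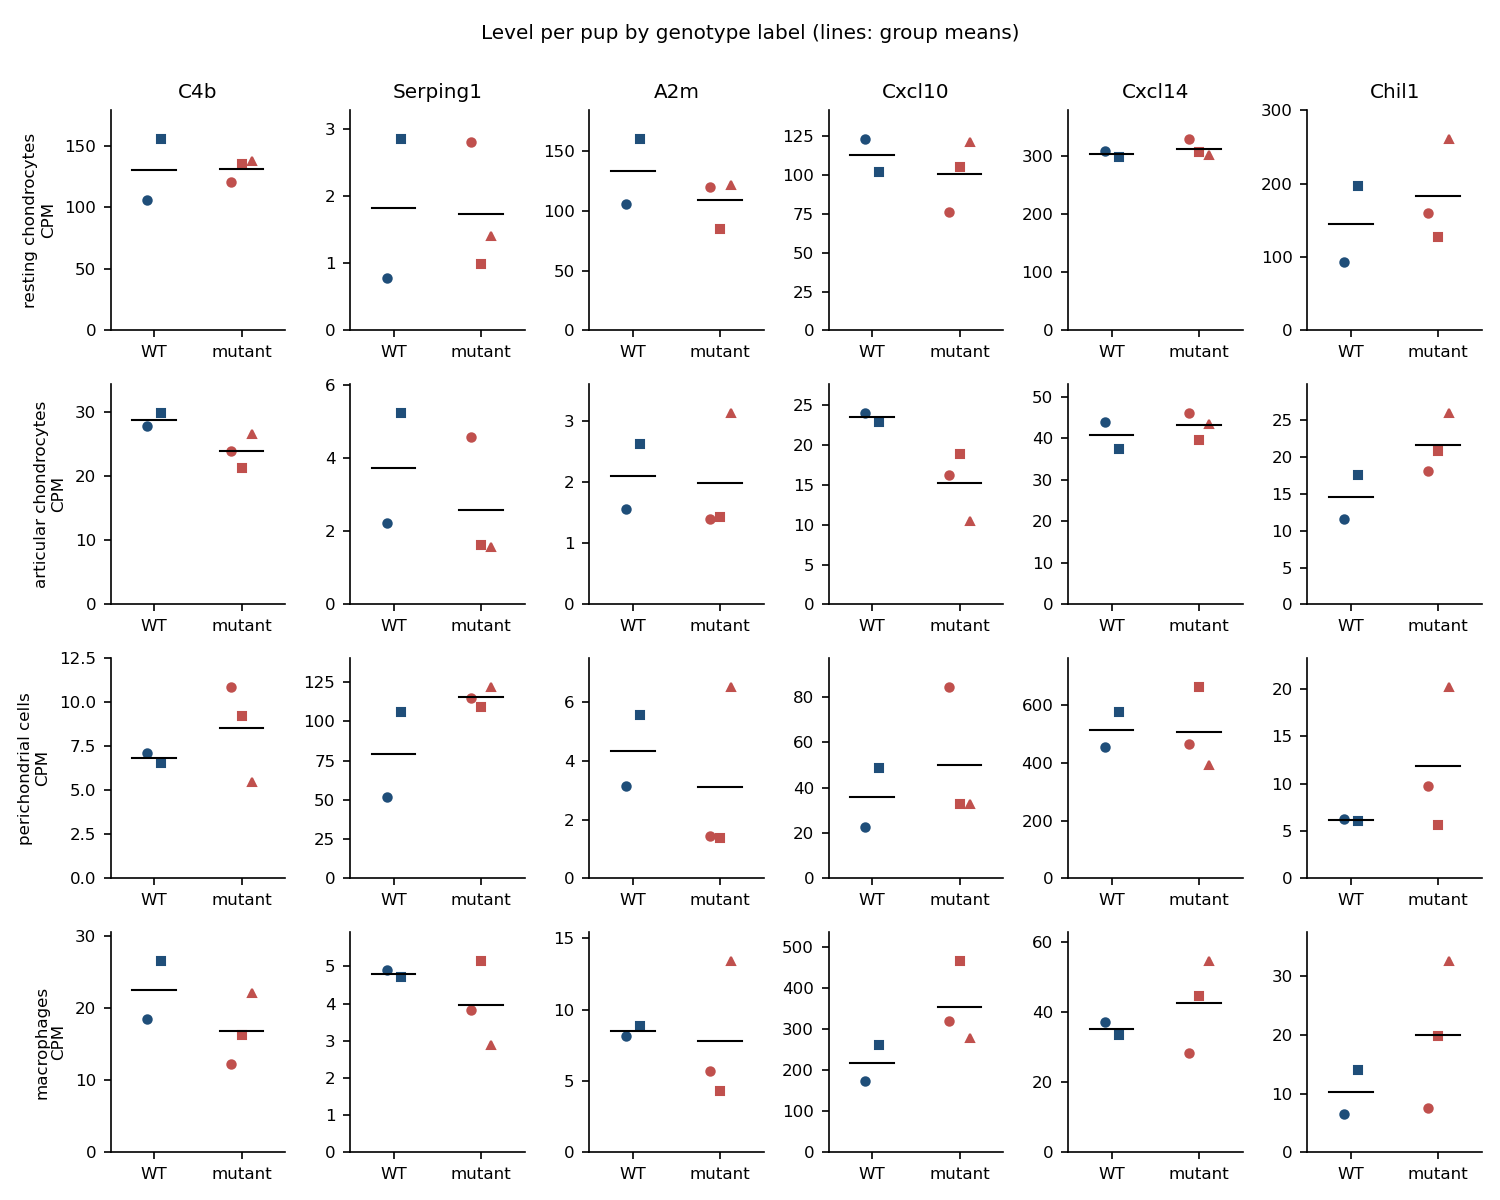
CPM per pup of the 6 members tested, by genotype label, in resting chondrocytes, articular chondrocytes, perichondrial cells and macrophages. Points are pups and lines the group means; in resting chondrocytes the groups overlap for every gene, and in articular chondrocytes C4b and Cxcl10 lie lower and Chil1 higher in the 3 mutant pups, none past the test.

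C3 was the member chosen for its difference between labels, so its values are given without a test. Over all cells the WT pups stood at 3.78 and 4.39 CPM and the mutant pups at 2.06, 1.54 and 1.61. The log2 fold change was -1.13, and 19.8% of all genes tested lay wholly below in the same way. Without granulocyte lineage cells and macrophages the values were 1.36 and 3.21 against 1.36, 1.31 and 1.32 CPM, and pup 1 then lay among the mutant pups. The count of granulocyte lineage cells was 189 and 67 in WT pups against 68, 11 and 26 in mutant pups, or 1.25% and 0.405% against 0.355%, 0.0615% and 0.188% of the cells. Their 9 markers summed to 594 and 185 against 118, 12.98 and 85.9 CPM in all cells, and to 0.571 to 6.03 CPM in resting chondrocytes. Macrophages were 1.27% and 2.35% against 1.69%, 0.906% and 0.861%. Within macrophages C3 was at 55.1 and 40.4 CPM against 25.2, 24.1 and 24.0, where 12.2% of the 10316 genes counted lay wholly below and 9.91% wholly above. Within granulocyte lineage cells it was at 141 and 143 against 127, 64.8 and 51.3 CPM, the last 2 from 11 and 26 cells.

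In chondrocytes the label groups of C3 overlapped. Prehypertrophic chondrocytes had 4.45 and 6.48 CPM in WT against 3.66, 4.71 and 3.96 in mutant pups, and the Sfrp5 cluster had 5.01 and 6.95 against 7.54, 7.47 and 6.498. Resting chondrocytes had 0.333 and 0.603 against 0.259, 0.152 and 0.412 CPM. The cluster led by Col6a6 and Dpt had 15.2 CPM of C3 in pup 2 against 0 to 5.48 in the other pups, and pup 2 also had the most cells of the Sfrp5 cluster, 1259 against 346 to 804.

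**Figure D5:**
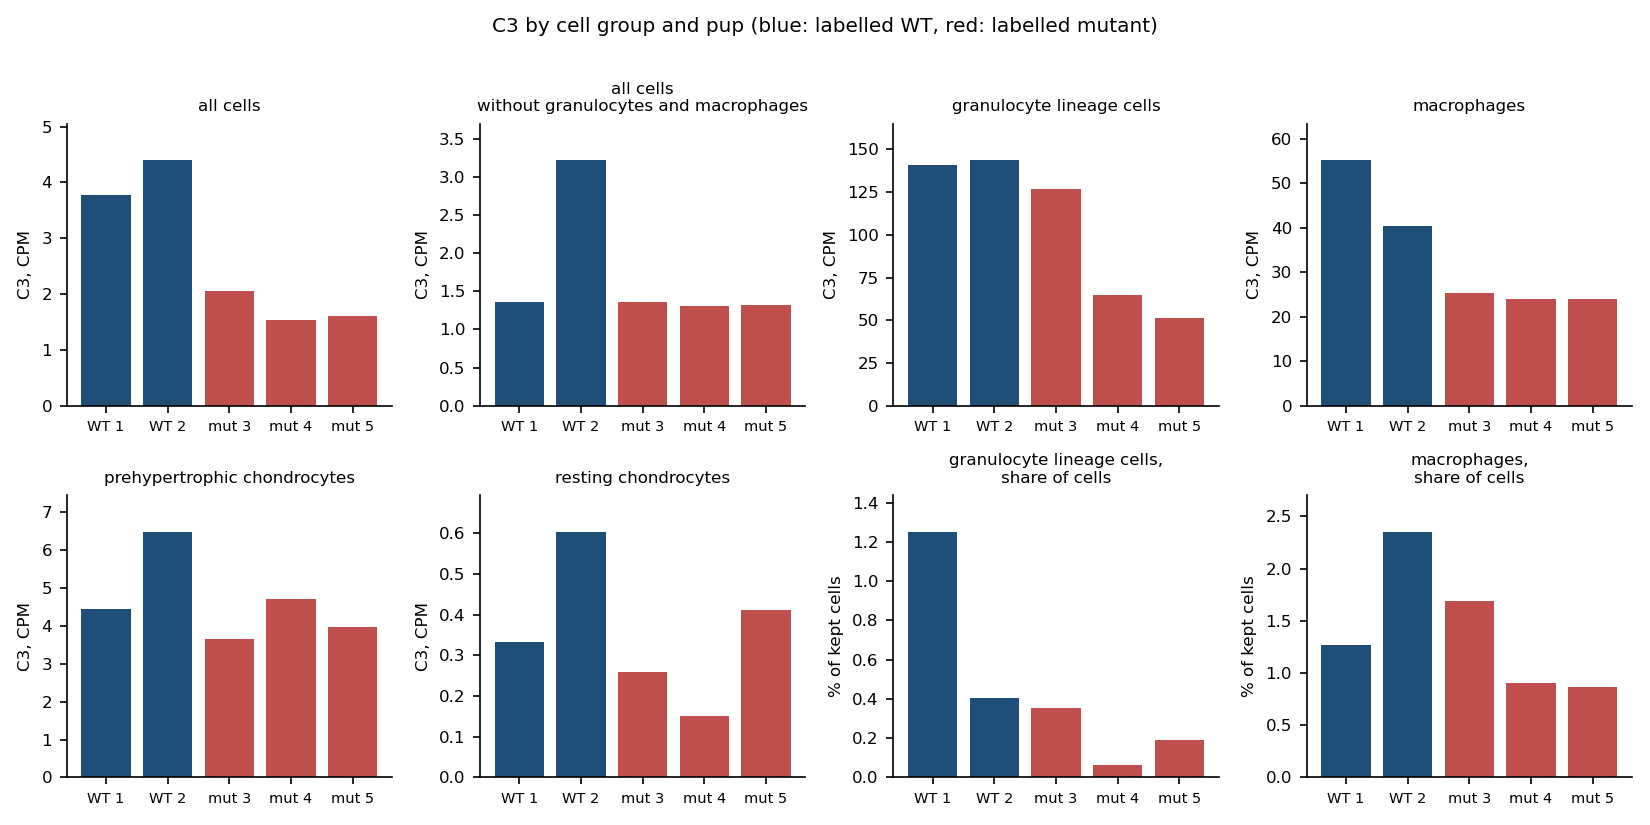
C3 in CPM by pup (blue, labelled WT; red, labelled mutant) in all cells, without granulocytes and macrophages, and in 4 cell groups, with the share of granulocyte lineage cells and of macrophages among kept cells. The mutant pups lie below in all cells (at most 2.06 against at least 3.78 CPM), and pup 1 joins them at 1.36 once both myeloid groups are left out.

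The pathway lists showed no gene past the test in any class. In resting chondrocytes 8 of 20 initiation genes were tested (4 with a positive and 4 with a negative fold change, median -0.0031), 4 of 11 of the C3, alternative and terminal group (1 and 3, median -0.31, with C3 among the negative ones; 1 and 2 without it), 9 of 16 regulators (4 and 5, -0.05) and 3 of 8 receptors (1 and 2, -0.16), beside a median of -0.0033 over all genes. Of the macroglobulin and serpin list 8 of 13 were tested (7 and 1, 0.18), of the chemokines 18 of 31 (4 and 14, -0.10), of their receptors 5 of 17 (2 and 3, -0.13) and of the chitinase family 4 of 7 (2 and 2, 0.08). Interferon response genes gave 13 positive and 5 negative of 18 tested (median 0.10), NF-kB and acute phase genes 18 and 6 of 24 (0.10), stress genes 9 and 10 of 19 (-0.07) and cell cycle genes 6 and 6 of 12 (-0.06). The 7 members gave 4 and 3, with a median of 0.03, and 4 and 2 without C3, which was chosen for being lower. The chemokine list held 0 genes and the NF-kB list 2 at an unadjusted p under 0.05. Single genes of known role did not pass either: the edgeR adjusted p was 0.97 for Serpina3n (log2 fold change 0.28, SE 0.31), an acute phase protease inhibitor, 0.97 for Cebpd (0.42, 0.31), a transcription factor induced in inflammation, and 0.97 for Steap4 (0.36, 0.24), a metal reductase of the same response.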

How the data were processed

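Cells of 5 pups were counted with the BD Rhapsody HT Express system, 1 library per pup. The deposited values were UMI counts per gene and cell, not normalized, and the submitters' processing notes name the mm10 build; further alignment settings are not given in the sources used here. Total counts ran from 117746735 to 183322632 UMIs per pup. Cells with 200 to 6000 genes and at most 10% mitochondrial UMIs were kept, and no doublet caller was run. Cells were clustered with scanpy 1.11.5 and leidenalg 0.10.2 (3000 variable genes by Pearson residuals, 50 components, 20 neighbours, resolution 1.5). The 7 genes, the gene lists other than dissociation stress and cell cycle, Xist, Y-linked and mitochondrial genes were left out. A cluster was named from marker lists, where at least 3 markers were found in at least 10% of its cells; the limits of this rule were set after the data were seen. The members and lists were chosen with earlier results of these data known. Named genes are the members, the 3 genes most alike to each across clusters and the 5 genes of each list with the highest level in resting chondrocytes, with Trpv4, Xist and Ddx3y as checks of the libraries. Steap4 and C4a were added after their values were seen. A gene that this rule names is not reported here.

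UMIs were summed per pup for all cells and for the resting, articular, joined prehypertrophic and Tgfbi-expressing, perichondrial and tendon or ligament classes, and tested with edgeR 4.0.16 (quasi-likelihood, TMM scaling, filterByExpr), with adjusted p over all genes and a threshold of 0.05, after the test had been tried on simulated data with 200 changed genes. DESeq2 1.42.0, other scalings and filters, leaving out each pup, and other clusterings were alternatives. The libraries differed by more than sampling noise, so none was a copy of another. Gene positions are from GENCODE for GRCm38. The p-values measure the spread between pups of 1 litter.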

Additional observations from a re-analysis of the deposited data

Results flagged for a closer look

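Cxcl10 lay on opposite sides of the WT pups in 2 cell types. In articular chondrocytes every pup labelled mutant was below both labelled WT, with a difference of means of -8.26 CPM, as were 15.2% of all genes tested there, and the edgeR adjusted p was 0.51. In macrophages every pup labelled mutant (320, 467 and 278 CPM) was above both labelled WT (173 and 262), with a difference of 137 CPM, as were 9.91% of the genes counted there, and the labels were not tested in macrophages. The difference between the cell types was not tested. Macrophages numbered 119 to 389 per pup.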

How the results depend on the processing

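No pairing of WT with mutant pups was possible, because each pup carried 1 genotype label and the labels name no pairs. The comparison of label effects between resting and articular chondrocytes was made within pups. Of 392 recomputed label effects, 327 kept their direction and their side of the threshold, 59 changed direction (in 25 of 39 effects), 6 gained a call and 0 lost one. Numbers of genes called changed most. DESeq2 called 48 genes in all cells, 11 in resting, 12 in articular, 17 in perichondrial and 2 in tendon or ligament cells. It gave an adjusted p to only 1124 genes in articular and 1913 in perichondrial cells, and effects without one counted as not called. Without the filter there were 18 in resting, 86 in articular, 126 in perichondrial and 30 in tendon or ligament cells and 32 for the difference between resting and articular effects. With pups 1, 2 and 5 alone there were 83 in articular, 246 in perichondrial and 13 in tendon or ligament cells. Leaving out 1 pup gave 0 to 6 in all cells, 0 to 9 in resting, 0 to 13 in articular, 0 to 5 in prehypertrophic and Tgfbi-expressing, 0 to 10 in perichondrial and 0 to 6 in tendon or ligament cells, and 0 to 23 for the difference of effects.

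The resting label effects changed sign for C4b at resolution 0.8 (-0.21) and with another seed (-0.10), for Cxcl10 with pups 1, 2 and 5 (0.18), for Cxcl14 at resolution 2.5 (-0.072), with the lists kept among the clustering genes (-0.030) and at 20% mitochondrial UMIs (-0.077), and for Serping1 with pups 1, 2 and 5 (-0.24), with the lists kept (-0.22) and in the Chil1 and A2m cluster alone (-0.080, chosen after seeing the data). In articular chondrocytes A2m became 0.65 with pups 1, 2 and 5. Leaving out 1 pup gave resting effects from -0.44 to 0.051 for A2m, -0.12 to 0.33 for C4b, -0.26 to 0.12 for Cxcl10 and -0.62 to 1.13 for Serping1 (0.018 to 0.98 for Chil1, with no change of sign), and articular effects from -0.54 to 0.31 for A2m, -0.048 to 0.30 for Cxcl14 and -1.12 to 0.28 for Serping1. The cause was not tested.

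The mean level in resting chondrocytes depended on which clusters took that name. At resolution 0.8 it was 58.0 CPM for C4b, 12.6 for A2m, 41.9 for Cxcl10, 266 for Cxcl14 and 24.0 for Chil1. With another seed it was 98.9, 57.2, 84.7, 342 and 75.6, with the lists kept A2m was 69.2, Cxcl10 84.6, Cxcl14 332 and Chil1 79.8, at resolution 2.5 Cxcl14 was 369, and at 20% mitochondrial UMIs Cxcl14 was 422 and Chil1 98.9. Thinning to 5000 UMIs gave shares of 0.180% for C3, 34.8% for C4b, 26.8% for A2m, 8.48% for Cxcl10, 56.7% for Cxcl14 and 28.8% for Chil1. Depth limits C3 in resting chondrocytes, which rested on 46 UMIs, and hypertrophic chondrocytes were not tested because 1 pup had 29 cells.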
